A study of Homo sapiens with 3 samples.

Results

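The genes described here are NFE2L2, which encodes the transcription factor NRF2, its targets NQO1, HMOX1, GCLC, GCLM, TXNRD1 and SRXN1, and the iron storage genes FTH1 and FTL, measured as RNA in DU145 cells. These 9 genes lie on chromosomes 2, 16, 22, 6, 1, 12, 20, 11 and 19 in this order, were chosen by name and not by a threshold on their values, and each of the 9 is listed in all 3 deposited tables, among 22773 genes listed there. All 9 passed the filter of a mean of at least 1 CPM (a gene's count scaled to a common library total) that left 14185 genes to be tested.

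NRF2 switches on antioxidant and detoxification genes. KEAP1 holds it in the cytoplasm and marks it for degradation, and oxidants or electrophiles release it to bind antioxidant response elements together with small MAF proteins. Its best known targets make glutathione, reduce thioredoxin and quinones, break down haem and store iron. Ferritin, the iron storage shell, is built from a heavy chain (FTH1) and a light chain (FTL), and the translation of both is also set by iron through an iron responsive element at the start of their mRNAs.

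DU145 is an established human prostate cancer line. RNA was sequenced 48 h after transfection with 75 nM siRNA from 1 library with TSPAN18 siRNA 1, 1 library with TSPAN18 siRNA 2 and 1 library with a negative control siRNA. TSPAN18 encodes a tetraspanin membrane protein, and the study's title sets it beside STIM1 and TRIM32 in bone metastasis. Both siRNAs share the 1 control, no condition has a replicate, and nothing in the labels says whether the libraries came from separate cultures or days.

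The libraries held 29913825 read pairs with siRNA 1, 29766559 with siRNA 2 and 30058731 with the control siRNA; a single pair counts for 0.0334, 0.0336 and 0.0333 CPM. TSPAN18 itself had 1.37 CPM under siRNA 1 and 1.51 CPM under siRNA 2, against 16.9 CPM in the control. The epithelial keratins KRT8, KRT18 and KRT19 were each above 100 CPM in every library, at a summed epithelial marker level of 770.4, 754 and 900.2 CPM. Endothelial and macrophage markers reached at most 1.36 CPM, and COL1A1, a fibroblast marker, was at 3.18, 5.98 and 7.25 CPM. Markers of other blood cells were not analysed here. Mitochondrially encoded genes took 7.16%, 7.84% and 7.27% of reads. The siRNA 1 and siRNA 2 libraries were not one library deposited under both labels: set against counting noise alone, their chi-square divided by its degrees of freedom was 66.8.

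Antioxidant response elements were looked for as TGACNNNGC on either strand, from 250 bases before to 50 bases after the transcription start sites that RefSeq gives on GRCh38.p14. Of all 35116 such windows 13.3% hold these letters. RefSeq windows were matched by symbol for 7 of the 9 genes (not for HMOX1 and FTH1), and those of GCLM and TXNRD1 hold the motif. They are shown because GCLM was alike in both siRNA libraries and TXNRD1 was not, and those of KEAP1 and ME1 because both genes were at least 1.5-fold higher with both siRNAs. AKR1C3, CHAC1, SESN2 and PRDX4 met the same rule of size, but their windows were not looked at on their own. The matches in KEAP1 and ME1 therefore say nothing about the genes that met this rule as a group. KEAP1 and ME1 each hold another match, which is not shown. Capitals mark the motif, which reads as TGACNNNGC or as its reverse complement, and each sequence is written 5′ to 3′ on the gene's strand.
GCLM, chr1:93909445-93909474, minus strand: tacgatttctGCTTAGTCAttgtcttccag
TXNRD1, chr12:104215670-104215699, plus strand: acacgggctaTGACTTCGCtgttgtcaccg
TXNRD1, chr12:104215761-104215790, plus strand: gcgtccttcgGCTCCGTCAgttcccacagg
TXNRD1, the other start site, chr12:104286920-104286949, plus strand: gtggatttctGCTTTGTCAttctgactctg
KEAP1, chr19:10502783-10502812, minus strand: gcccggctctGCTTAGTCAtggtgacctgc
ME1, chr6:83431169-83431198, minus strand: tctcctgccaTGACTCAGCgcttctcgcag
A different pattern of the same length, TGANTCAGC, is held by 1.36% of the windows. It was found in the ME1 window and in none of the windows of the 7 matched genes. A match is a description of these letters, and no match says nothing about the factor.

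The iron responsive elements of the ferritin chains are shown because they are known to tie the translation of FTH1 and FTL to iron. The 16 bases in capitals, with any base allowed where the chains differ, were found on the transcript strand of 3 of 19669 coding genes of GENCODE 29 (FTH1, FTL and NCKAP1). These letters were taken from FTH1 and FTL, so finding both was fixed in advance. The count is not that of all genes with iron responsive elements, since TFRC, which is known to carry them, is not among the 3.
FTH1, chromosome 11, bases 59 to 88 of transcript FTH1-201: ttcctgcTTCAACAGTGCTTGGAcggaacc
FTL, chromosome 19, bases 35 to 64 of transcript FTL-201: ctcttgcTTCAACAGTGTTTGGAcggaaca
Binding of iron regulatory proteins to these loops is known to block translation of ferritin when iron is low. RNA levels alone, as measured here, do not report on that step.

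Against the control library, NFE2L2, GCLC, GCLM and FTL were somewhat higher with both TSPAN18 siRNAs, SRXN1 was lower with both, and NQO1, TXNRD1 and FTH1 differed from the control in opposite directions or with 1 siRNA alone. HMOX1 was close to the control with both. Most of these differences were small: 8 of the 9 genes stayed within 1.5-fold of the control with either siRNA. No gene of the 9 passed the test over both siRNAs (limma, adjusted p from 0.992 to 1.00), and none had an unadjusted p under 0.05. In this fit 0.00% of all 14185 genes passed at an adjusted p under 0.05, and 4.87% (691 genes) had an unadjusted p under 0.05. What follows is therefore a description of 3 libraries. In RNA of whole cultures, fewer cells that express a gene and less RNA per cell cannot be told apart.

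**Figure D1:**
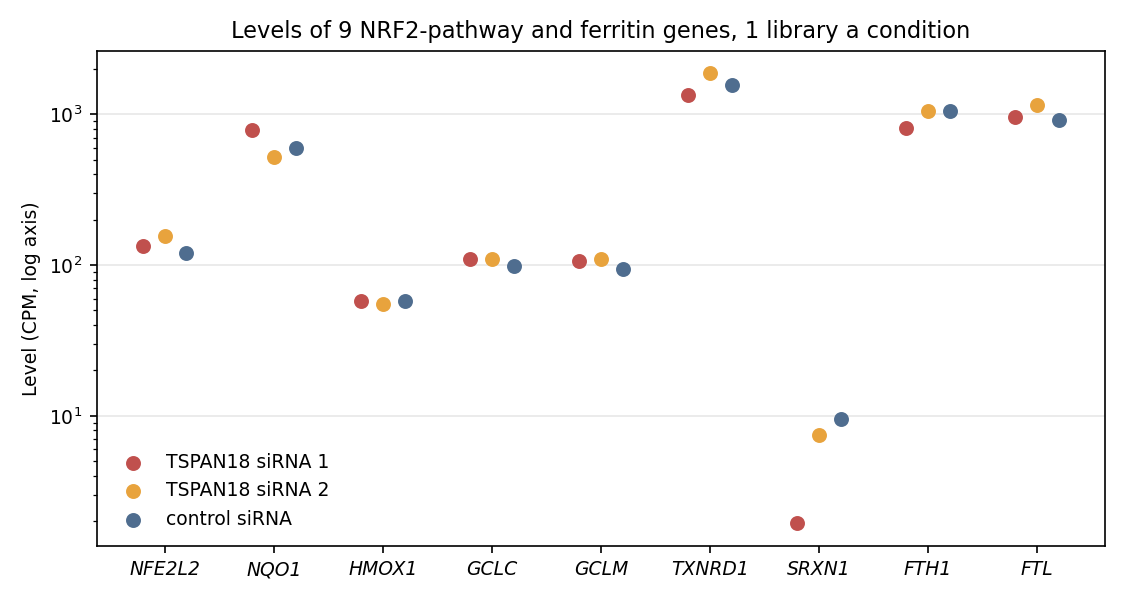
Level of each gene in CPM (log axis) in the 3 libraries, 1 point a library. TXNRD1, FTH1, FTL and NQO1 lie between 521 and 1874 CPM, NFE2L2, HMOX1, GCLC and GCLM between 54.9 and 155 CPM, and SRXN1 between 1.94 and 9.55 CPM.

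NFE2L2 (ENSG00000116044) had 135 CPM in the siRNA 1 library and 155 CPM in the siRNA 2 library, against 121 CPM in the control library. The library of siRNA 2 was the highest and the control the lowest. This is 111% of the control with siRNA 1 (95% exact counting interval 106 to 116) and 128% with siRNA 2 (123 to 134). On the log2(CPM + 1) scale the differences from the control were 0.15 and 0.36, and limma gave a mean of 0.26 with a standard error of 0.30 (adjusted p = 0.992). Such intervals cover counting error only, here and throughout, and carry nothing on variation between cultures. Of the exonic length of NFE2L2, 20.9% is shared with other annotated genes.

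The enzyme of glutathione synthesis differed little from the control. GCLC (ENSG00000001084), the catalytic subunit of glutamate-cysteine ligase, the first step of glutathione synthesis, measured 110.0 CPM under siRNA 1 and 109 CPM under siRNA 2, against 97.9 CPM in the control. GCLM (ENSG00000023909), the modifier subunit of the same enzyme, had 106 CPM in the siRNA 1 library and 109.8 CPM in the siRNA 2 library, against 94.6 CPM in the control library. Both subunits were thus at 111% to 116% of the control in both siRNA libraries, and each counting interval lay above 100%. The ratio of GCLC to GCLM in CPM was 1.04 with siRNA 1 and 0.99 with siRNA 2, against 1.03 in the control, so that the subunits kept nearly the same proportion in the 3 libraries. The limma means were 0.16 for GCLC and 0.18 for GCLM (adjusted p = 0.994 and 0.992).

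TXNRD1 (ENSG00000198431), the cytosolic thioredoxin reductase, was the most abundant of the 9 genes in CPM. It measured 1341 CPM under siRNA 1 and 1874 CPM under siRNA 2, against 1576 CPM in the control. The siRNA libraries lay on opposite sides of the control, at 85.1% (84.0 to 86.2) and 119% (118 to 120.4) of it. The log2 differences were −0.23 and 0.25, and limma gave a mean of 0.01 (adjusted p = 1.00).

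SRXN1 (ENSG00000271303), sulfiredoxin, which repairs over-oxidised peroxiredoxins, gave the largest difference from the control among the 9 genes. It had 1.94 CPM in the siRNA 1 library and 7.46 CPM in the siRNA 2 library, against 9.55 CPM in the control library, from 58, 222 and 287 read pairs. The siRNA 1 library stands far below the other two. It held 20.3% of the control value (15.0 to 27.0), and the siRNA 2 library held 78.1% (65.3 to 93.4). The log2 differences were −1.84 and −0.32. With a pseudocount of 5 CPM the difference with siRNA 1 was −1.07, since SRXN1 is the least abundant of the 9. The limma mean was −1.08 with a standard error of 0.57 (unadjusted p = 0.0996, adjusted p = 0.992). SRXN1 shares 85.0% of its exonic length, on the same strand, with AL121758.1, so its count is uncertain. AL121758.1 had 0.702 CPM under siRNA 1 and 1.31 CPM under siRNA 2, against 0.266 CPM in the control, from 21, 39 and 8 pairs, so it was lowest in the control, where SRXN1 was highest.

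NQO1 (ENSG00000181019), the quinone reductase most often used as a readout of NRF2 activity, had 786 CPM in the siRNA 1 library and 521 CPM in the siRNA 2 library, against 598 CPM in the control library. It was 131% of the control with siRNA 1 (129 to 134) and 87.1% with siRNA 2 (85.2 to 89.0). NQO1 was the one gene of the 9 that was above the control with siRNA 1 and below it with siRNA 2, as were 11.2% of all genes tested. Its order among the libraries is the reverse of that of TXNRD1. The limma mean was 0.10 (adjusted p = 0.996).

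HMOX1 (ENSG00000100292), the inducible haem oxygenase that frees iron from haem, measured 57.5 CPM under siRNA 1 and 54.9 CPM under siRNA 2, against 58.1 CPM in the control. These are 99.0% (92.6 to 106) and 94.4% (88.2 to 101) of the control, and HMOX1 was the one gene of the 9 whose counting interval held 100% with both siRNAs. Its log2 differences were −0.01 and −0.08, which became 0.10 and −0.09 under median-of-ratios scaling and 0.32 and 0.07 once the trend with GC content was removed.

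The ferritin chains differed from each other. FTH1 (ENSG00000167996), the heavy chain with the ferroxidase activity that oxidises iron for storage, had 813 CPM in the siRNA 1 library and 1051.3 CPM in the siRNA 2 library, against 1050.6 CPM in the control library. The siRNA 1 library was therefore lower, at 77.4% of the control (76.1 to 78.7), while siRNA 2 gave a log2 difference of 0.00, or −0.01 under median-of-ratios or TMM scaling. FTL (ENSG00000087086), the light chain that aids formation of the iron core, measured 966 CPM under siRNA 1 and 1155 CPM under siRNA 2, against 916 CPM in the control. It was 105% (104 to 107) and 126% (124 to 128) of the control.

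The ratio of FTH1 to FTL in CPM was 0.842 with siRNA 1 and 0.911 with siRNA 2, against 1.15 in the control. Both siRNA libraries thus held more FTL than FTH1 reads and the control held fewer. Both chains together summed to 1779 CPM under siRNA 1 and 2206 CPM under siRNA 2, against 1967 CPM in the control. Limma gave a mean of −0.18 for FTH1 and 0.20 for FTL (adjusted p = 0.994 and 0.992), and the ratio has no test of its own. BEST1, on the opposite strand, shares 62.4% of the exonic length of FTH1 and stood at 1.97, 3.49 and 1.73 CPM. The 9 listed FTH1 pseudogenes of 25 annotated summed to 4.71, 5.98 and 5.22 CPM. Reads that the counting dropped or moved between FTH1 and these genes are not measured here and the strand setting is not known, so the FTH1 count is uncertain, and their part in its difference was not tested.

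**Figure D2:**
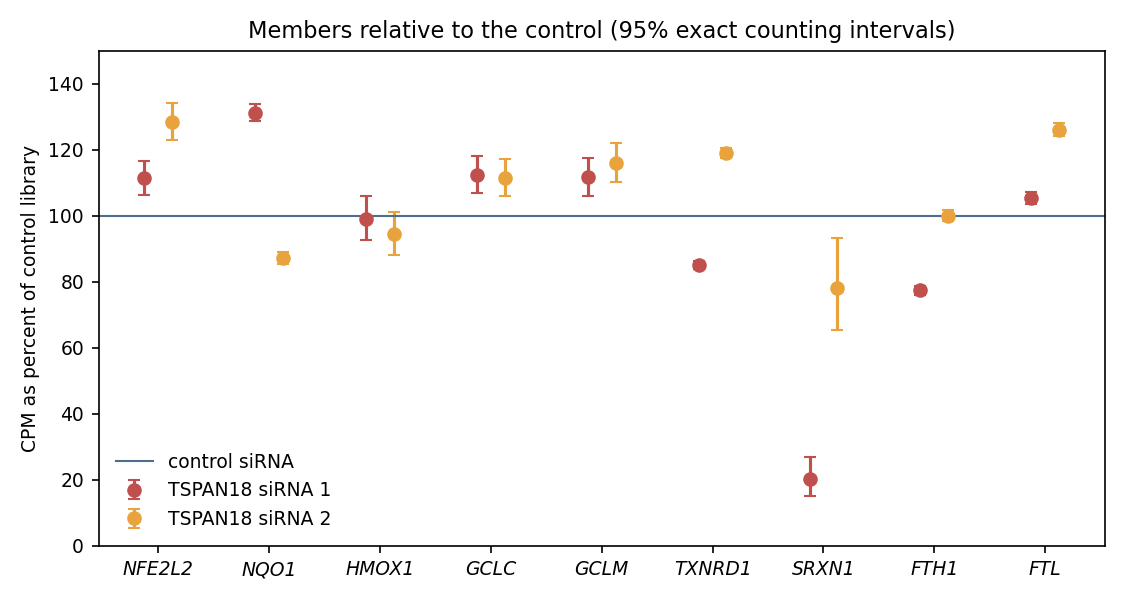
Level of each gene as a percent of the control library, with 95% exact counting intervals, for siRNA 1 and siRNA 2 (1 library each). SRXN1 with siRNA 1 lies at 20.3%, NQO1 and TXNRD1 lie on opposite sides of 100% with the 2 siRNAs, and the other points lie between 77.4% and 128%.

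Counted over the 9 genes, 4 were higher than the control with both siRNAs, against 29.3% of all genes tested. HMOX1 and SRXN1 were lower with both, against 37.7% of all genes, though HMOX1 changes side with the scaling. TXNRD1 and FTH1 were lower with siRNA 1 and higher with siRNA 2, against 21.8% of all genes, and FTH1 lies almost on the control with siRNA 2. At 1.5-fold, SRXN1 alone was lower with siRNA 1, where 15.1% of all genes were that much lower and 4.43% that much higher. With siRNA 2 none of the 9 was past 1.5-fold, where 6.61% of all genes were lower and 6.34% higher. The median log2 difference of the 9 genes was 0.08 with siRNA 1 and 0.15 with siRNA 2, beside −0.10 and 0.01 over all genes. With 9 genes and 1 library a condition, these counts are a description and no result about the list.

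The siRNA libraries can also be set against each other, which leaves the shared control out. SRXN1 was higher with siRNA 2 than with siRNA 1, at 385% of it (287 to 523), where 13.0% of all genes were at least 1.5-fold higher. NQO1 was lower with siRNA 2, at 66.3% of its siRNA 1 level (65.0 to 67.7), where 3.74% of all genes were at least 1.5-fold lower. TXNRD1 was at 139.8% (138.0 to 141.6), FTH1 at 129% (127 to 131), FTL at 119% (118 to 121) and NFE2L2 at 115% (111 to 120.3). GCLC, GCLM and HMOX1 had intervals that held 100%. The median log2 difference of siRNA 2 minus siRNA 1 was 0.20 over the 9 genes and 0.11 over all genes.

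Levels of different genes can be compared only per length. Per kb of exonic sequence, FTL was the highest, at 1100 CPM per kb with siRNA 1 and 1315 with siRNA 2, against 1044 in the control. FTH1 followed at 401 CPM per kb with siRNA 1 and 518 with siRNA 2, against 518 in the control. TXNRD1 lay at 200, 279 and 235 CPM per kb and NQO1 at 241, 160.2 and 184, so that NQO1 ranked above TXNRD1 with siRNA 1 and below it in the other libraries. HMOX1 and NFE2L2 were near each other, at 23.9 and 22.5 CPM per kb with siRNA 1, at 22.8 and 25.99 with siRNA 2, and at 24.2 and 20.2 in the control. GCLM lay between 17.5 and 20.3, GCLC between 11.3 and 12.7, and SRXN1 between 0.719 and 3.54 CPM per kb. The ferritin chains were thus at the top of this order and sulfiredoxin at the bottom in every library. The length used joins all annotated exons of a gene (2030 bases for FTH1, 878 for FTL), not the transcripts expressed, and the order depends on it. In CPM the control library held more FTH1 (1051) than FTL (916). The counts of SRXN1 and FTH1 are uncertain, since other genes share part of their exons.

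The differences from the control followed GC content over all genes. Over 14163 genes, Spearman's rho came to −0.43 with siRNA 1 and to −0.36 with siRNA 2, given as a description since genes are not replicates and the ratios share a control. With this trend removed, the differences of FTL became 0.32 and 0.44 (56.3% GC), where they were 0.08 and 0.33 before. Those of GCLM became 0.03 and 0.04 (40.4% GC), against 0.16 and 0.21, and those of GCLC became 0.15 and 0.05, against 0.17 and 0.15. FTH1 with siRNA 1 became −0.17, against −0.37. NQO1 (0.45 and −0.23) and SRXN1 (−1.65 and −0.25) kept their sides. Median-of-ratios scaling raised the median of all genes with siRNA 1 by 0.10, and under it the siRNA 1 differences were 0.27 for NFE2L2, 0.28 for GCLC, 0.27 for GCLM, 0.19 for FTL and −0.12 for TXNRD1.

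**Figure D3:**
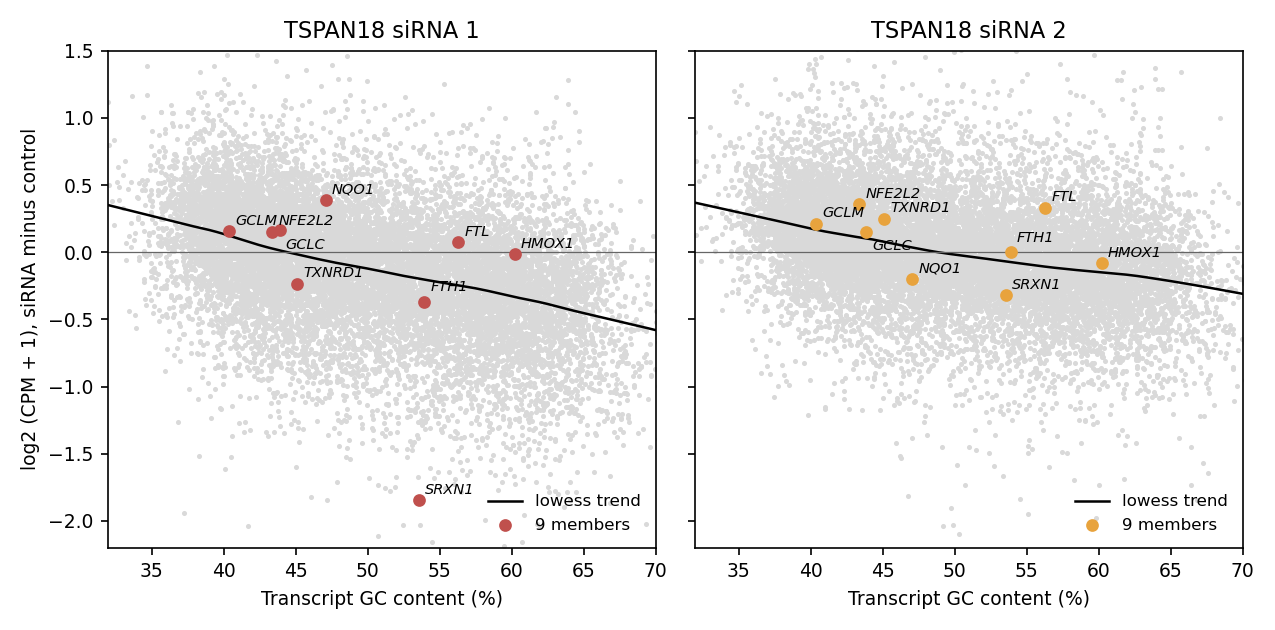
Difference from the control in log2(CPM + 1) against transcript GC content (%) for all genes (grey), with a lowess trend (black line) and the 9 genes named, for siRNA 1 (left) and siRNA 2 (right). 68 and 69 of 14163 genes lie outside the axes. The trend falls with GC content in both panels, and GCLM lies close to it in both while SRXN1 with siRNA 1 lies far under it.

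Outside the 9 genes, 10 lists of the same biology held 191 genes, 167 of which passed the filter. In these, 6 genes were at least 1.5-fold higher with both siRNAs (KEAP1, AKR1C3, CHAC1, SESN2, PRDX4 and ME1), where 1.96% of all genes were, and IBA57 was at least 1.5-fold lower, where 3.46% were. AKR1C3 fell short of 1.5-fold with a pseudocount of 5 CPM (0.45 and 0.46), while BACH1 passed it under median-of-ratios (0.64 and 0.73) and TMM scaling (0.63 and 0.73). The IBA57 difference fell short of 1.5-fold with a pseudocount of 5 CPM, under TMM or median-of-ratios scaling and with the GC trend removed. None of the 167 had an adjusted p under 0.05 in limma (smallest 0.992). In the same fit 5 of the 167 had an unadjusted p under 0.05 (AKR1C3, ME1, PRDX4, SESN2 and SESN3). This is a smaller share than the 4.87% of all genes tested, and so no result about the lists. Nor did any count-based tool call one of the 9 genes.

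Of 17 regulators of NRF2, 1 was at least 1.5-fold higher with both siRNAs and 0 were lower. Over all genes 1.96% were higher and 3.46% lower by this rule. KEAP1, the adaptor that targets NRF2 for degradation, had 91.4 CPM in the siRNA 1 library and 90.4 CPM in the siRNA 2 library, against 56.7 CPM in the control library (log2 differences 0.68 and 0.66). BACH1, a repressor that competes with NRF2 at the same elements, measured 75.5 CPM under siRNA 1 and 87.8 CPM under siRNA 2, against 52.0 CPM in the control (0.53 and 0.74). Both of these negative regulators were higher than the control in both siRNA libraries. Other genes that act against NRF2 were mixed, with limma means of −0.03 for BACH2, −0.11 for BTRC, −0.11 for RBX1, 0.24 for GSK3B and 0.25 for CUL3. MAFG, a small MAF partner of NRF2, was at 199.7 and 217 CPM with the siRNAs, against 161 CPM in the control. NFE2L3, a related factor, was lower at 64.0 and 53.3 CPM, against 95.2 CPM in the control. The median of the list was −0.02 with siRNA 1 and 0.11 with siRNA 2.

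Among the other NRF2 target genes, siRNA 2 minus siRNA 1 had a median of 0.50 on the log2 scale (0.37 to 0.39 under other scalings), beside 0.20 over the 9 genes and 0.11 over all genes. Of 21 tested, 9 were at least 1.5-fold higher than the control with siRNA 2, where 6.34% of all genes were, and 1 with siRNA 1, where 4.43% were. Of the same list, 17 of 21 were higher with siRNA 2 than with siRNA 1, as were 62.3% of all genes. Their median log2 difference was −0.12 with siRNA 1 and 0.40 with siRNA 2. AKR1C3, an aldo-keto reductase, was at 6.62 and 6.65 CPM with the siRNAs, against 3.49 CPM in the control. ABCC2 and ABCC4, efflux transporters, were also higher with both (0.34 and 0.51, and 0.29 and 0.19). ABCC3, of the same family, was lower (−0.67 and −0.32).

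BLVRB, biliverdin reductase B, was chosen after its values were seen as the gene of this list with the widest gap. It had 19.5 CPM in the siRNA 1 library and 72.0 CPM in the siRNA 2 library, against 28.9 CPM in the control library. NQO2, also chosen after its values were seen, as the paralog of NQO1, had 54.4 CPM under siRNA 1 and 112 CPM under siRNA 2, against 59.5 CPM in the control. Under siRNA 2, NQO2 was thus above the control and NQO1 below it. PIR and OSGIN1 were chosen likewise. PIR (25.04, 43.9 and 23.0 CPM) and OSGIN1 (52.4, 88.2 and 52.4 CPM) had the pattern of NQO2, with siRNA 1 near the control and siRNA 2 above it, in the order siRNA 1, siRNA 2 and control.

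**Figure D4:**
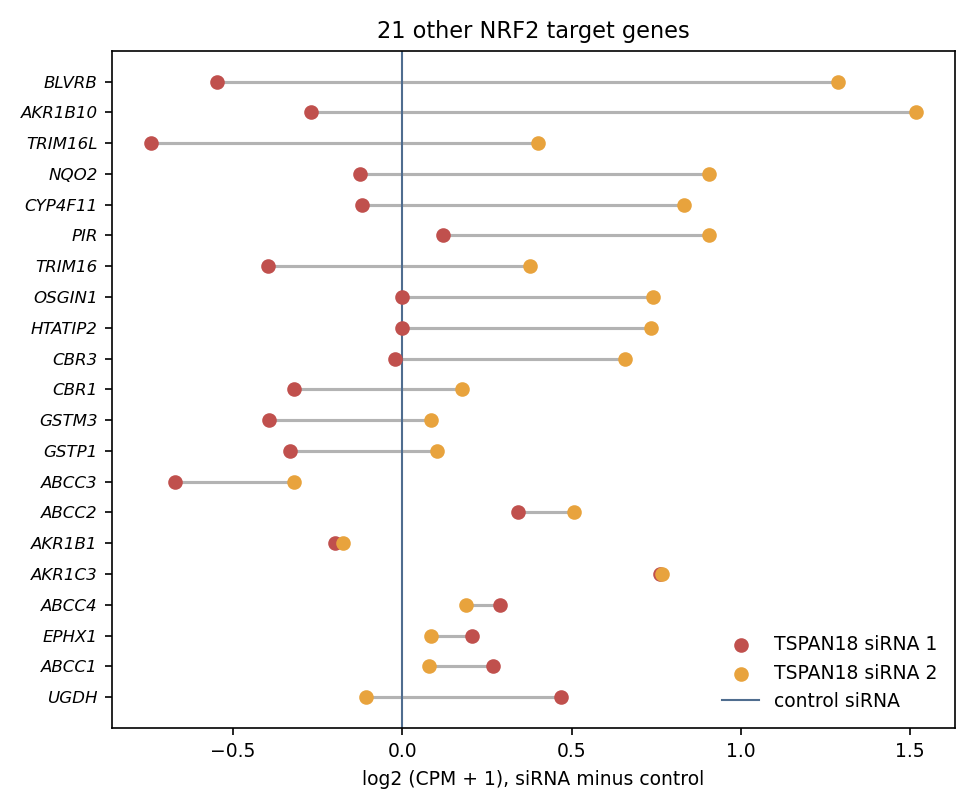
Difference from the control in log2(CPM + 1) for the 21 other NRF2 target genes, ordered by the gap between the siRNAs, with the control at 0. In 17 of 21 genes the siRNA 2 point lies to the right of the siRNA 1 point, with the widest gap at BLVRB.

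The cystine and glutathione genes included SLC7A11, the cystine transporter that supplies glutathione synthesis, with 168 CPM under siRNA 1 and 191 CPM under siRNA 2, against 122 CPM in the control; SLC7A11-AS1 overlaps 8.97% of its exonic length. Its partner SLC3A2 was at 421 and 424 CPM, against 315 CPM in the control. CHAC1, which degrades glutathione, was at 83.5 and 87.8 CPM, against 53.3 CPM in the control. It was the 1 gene of 21 past 1.5-fold with both siRNAs, where 1.96% of all genes were higher and 3.46% lower. MGST2, a microsomal glutathione transferase, was lower (−0.69 and −0.29). The list's medians were −0.15 and 0.12.

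Among 15 thioredoxin and peroxiredoxin genes, SESN2, a stress-induced sestrin, measured 91.2 CPM under siRNA 1 and 99.4 CPM under siRNA 2, against 45.2 CPM in the control. PRDX4, the peroxiredoxin of the endoplasmic reticulum, had 55.3 CPM in the siRNA 1 library and 57.0 CPM in the siRNA 2 library, against 29.5 CPM in the control library. SESN3 was at 67.6 and 101 CPM, against 45.1 CPM in the control. PRDX2, a cytosolic peroxiredoxin of the kind that sulfiredoxin repairs, was lower at 30.9 and 54.6 CPM, against 61.6 CPM in the control. Like SRXN1 it was lower mainly with siRNA 1. The limma means were −0.57 for PRDX2, 0.06 for PRDX1, 0.0023 for PRDX3, −0.07 for PRDX5 and −0.25 for PRDX6. The list's medians were −0.06 and −0.02.

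ME1, the cytosolic malic enzyme, which makes NADPH and is a known NRF2 target, gave the largest difference among the 19 genes of NADPH supply. It measured 77.0 CPM under siRNA 1 and 99.9 CPM under siRNA 2, against 33.5 CPM in the control, with log2 differences of 1.18 and 1.55. Limma gave a mean of 1.36 (unadjusted p = 0.00344, adjusted p = 0.992). IDH2, the mitochondrial isocitrate dehydrogenase, was lower (−0.53 and −0.46), and MTHFD2L was higher (0.33 and 0.43). The list's medians were −0.25 and 0.03.

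Of 5 superoxide and peroxide enzymes 0 were past 1.5-fold with both siRNAs, where 1.96% of all genes were higher and 3.46% lower. SOD1 (0.08 and 0.20) and CAT (0.03 and 0.39) were slightly higher and CYBA, an NADPH oxidase subunit, was lower (−1.02 and −0.20).

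**Figure D5:**
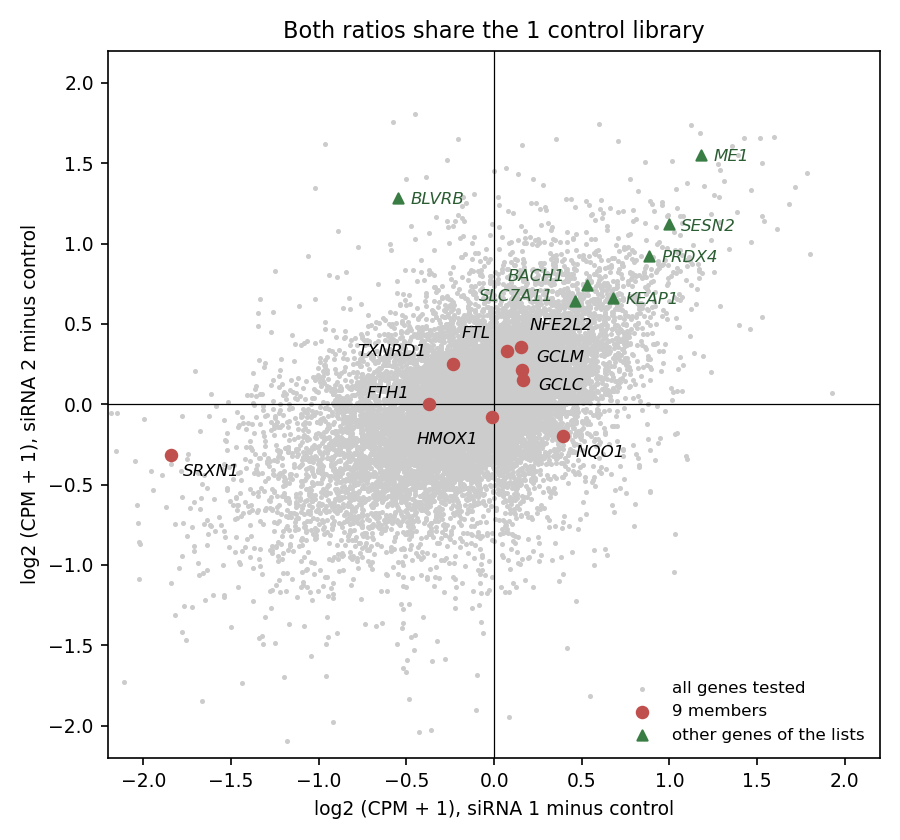
Difference from the control in log2(CPM + 1) with siRNA 1 (horizontal) and siRNA 2 (vertical) for 14185 genes (grey, 11 outside the axes), the 9 genes (red circles) and 7 other genes of the lists (green triangles). Both axes share the control library, which by itself places genes along the rising diagonal. Most of the 9 lie near the centre, SRXN1 lies at −1.84 and −0.32, and ME1 lies at 1.18 and 1.55.

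Around ferritin, 20 other genes of iron uptake, export and control were tested. Of these, 0 were past 1.5-fold with both siRNAs in either direction, against 1.96% (higher) and 3.46% (lower) of all genes. TFRC, the transferrin receptor, had 435 CPM in the siRNA 1 library and 417 CPM in the siRNA 2 library, against 347 CPM in the control library (0.32 and 0.26). Iron responsive elements in its 3′ UTR are known to protect its mRNA when iron is low. NCOA4, which delivers ferritin to autophagy, measured 234 CPM under siRNA 1 and 281 CPM under siRNA 2, against 219.6 CPM in the control. STEAP3, the reductase that acts on iron released from transferrin, was lower (−0.74 and −0.45); 11.0% of its exonic length is shared with STEAP3-AS1. STEAP2 and SLC25A28 (mitoferrin 2, an importer of iron into mitochondria) were lower by less. The list's medians were −0.15 and −0.07.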

How the data were processed

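RNA sequencing of 3 DU145 libraries was analysed. The submitters' processing notes name HISAT2 2.1.0, HTSeq 0.6.1, bcl2fastq 2.19.1 and build hg19; annotation release and strand setting: not given in the sources used here. Values as deposited are CPM, counts scaled by the authors to a fixed library total. In each library 100% of values came out as whole reads (tolerance 0.001 read), which gave the read pairs; a count of 0 appears as 1 read, and 3 pairs (0.0998 to 0.101 CPM) is the limit that a count of 0 allows.

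Differences were taken on log2(CPM + 1), which understates changes of low genes. The test was limma 3.58.1 in R 4.3.3, 2 siTSPAN18 libraries against 1 control, with 1 residual degree of freedom and Benjamini-Hochberg adjustment over 14185 genes. The spread comes from the siRNA libraries alone, may be technical, and is taken to hold for the single control too. DESeq2 1.42.0, limma-voom and edgeR 4.0.16 were also run on the recovered pairs. Rules of size at 1.5-fold and 2-fold have no p-value. Exonic length, GC content and exon overlap came from GENCODE 29 by gene identifier. GC trends were removed with lowess (fraction 0.3). Python 3.11.15 was used.

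The 9 genes, the lists and the tests were chosen with earlier results of these data known. Named list genes are up to 4 of each list with the largest smaller difference in the same direction with both siRNAs (mean of at least 2 CPM), plus KEAP1, BACH1, TFRC, SLC7A11 and NCOA4. Some genes that this rule takes are not reported here.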

Additional observations from a re-analysis of the deposited data

How the results depend on the processing

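No gene of the 9 passed an adjusted p of 0.05 in any of the 11 fits run, where adjusted p ran from 0.728 (SRXN1) to 1.00. Over all genes limma and edgeR called 0 (691 and 770 with an unadjusted p under 0.05), limma-voom 0 (821), DESeq2 13 (10 higher, 3 lower), and limma with median-of-ratios scaling or the GC trend removed called 1 lower each. The mean difference of HMOX1, −0.05, became 0.0025 under median-of-ratios scaling, 0.0057 in DESeq2 and 0.19 with the GC trend removed, and that of TXNRD1, 0.01, became −0.022 with it removed. Leaving out either siRNA gave −0.20 to 0.39 for NQO1, −0.23 to 0.25 for TXNRD1 and −0.37 to 0.00087 for FTH1. Of 167 pathway genes, 6 were at least 1.5-fold higher with both siRNAs, where 1.96% of all genes were. The count became 5 with a pseudocount of 5, 8 under median-of-ratios or TMM scaling and 1 at 2-fold. The shares of all genes under these settings are not given here. With siRNA 1 alone it was 10, where 4.43% of all genes were, and with siRNA 2 alone 20, where 6.34% were. IBA57 was the 1 gene at least 1.5-fold lower with both, where 3.46% of all genes were. The count became 0 with a pseudocount of 5, median-of-ratios scaling, TMM scaling or the 2-fold rule. With the GC trend removed, NFE2L3 (−0.61 and −0.94) passed 1.5-fold in place of IBA57 (−0.46 and −0.59). With siRNA 1 alone 24 were lower, where 15.1% of all genes were, and with siRNA 2 alone 7, where 6.61% were. The causes were not tested, beyond the fewer libraries of the last. No paired analysis was possible because the control carries no replicate number and the siRNA numbers name different reagents. Depth limits SRXN1 most (58 pairs with siRNA 1).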

Other observations

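Haem, iron-sulfur cluster and ferroptosis genes were further lists of this system. Of 17 genes of haem synthesis, export and breakdown other than HMOX1, 12 were lower than the control with both siRNAs by any amount and 0 were higher, where 37.7% and 29.3% of all genes were. The medians were −0.33 with siRNA 1 and −0.11 with siRNA 2. Past 1.5-fold with both were 0 of 17, against 1.96% (higher) and 3.46% (lower) of all genes. HEBP1, a haem binding protein, had 12.9 CPM in the siRNA 1 library and 6.08 CPM in the siRNA 2 library, against 18.3 CPM in the control library. CPOX, an enzyme late in haem synthesis, measured 24.8 CPM under siRNA 1 and 29.3 CPM under siRNA 2, against 39.6 CPM in the control. PGRMC1 (−0.18 and −0.34) and FLVCR1, a haem exporter (−0.17 and −0.21), were lower by less.

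Among 20 genes of iron-sulfur cluster assembly the medians were −0.06 and 0.04. IBA57, which acts late in mitochondrial cluster assembly, had 5.52 CPM in the siRNA 1 library and 5.51 CPM in the siRNA 2 library, against 9.38 CPM in the control library. ISCA2, from the same step, was lower (−0.28 and −0.96), while HSPA9, a mitochondrial chaperone, and CISD2 were higher (0.32 and 0.42, and 0.92 and 0.37). Among 13 ferroptosis regulators the medians were −0.21 and −0.14. ACSL4, which feeds polyunsaturated fatty acids into phospholipids, measured 118 CPM under siRNA 1 and 92.8 CPM under siRNA 2, against 63.4 CPM in the control. AIFM2, a ferroptosis suppressor, was also higher (0.33 and 0.30), and DHODH (−0.80 and −0.50) and GCH1 (−0.48 and −0.84), known for the same role, were lower. None of these genes had an adjusted p under 0.05 in limma.

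Heptamers that had been tied to each siRNA in earlier results of these libraries (TCACCAA and TTCACCA for siRNA 1, TGGGTCA and GGGTCAA for siRNA 2) were looked for in annotated 3′ UTRs, and support nothing as they came from these data. The siRNA 1 heptamers were found for FTH1, NQO1, GCLC and GCLM, and for 32.3% of 12200 genes with a 3′ UTR, whose median of siRNA 2 minus siRNA 1 was 0.17, against 0.09 in the genes without them. The siRNA 2 heptamers were found for 0 of the 9 and for 19.2% of the 12200, whose median was 0.01, against 0.13 in the others. SRXN1, which had the largest difference with siRNA 1 among the 9, holds neither. Among the other NRF2 targets, the median of siRNA 2 minus siRNA 1 was 0.50 over all 21 genes. It was 0.46 over the 12 without either kind of heptamer. Since the heptamers came from these data, no conclusion is drawn from this split, and their part in the gap was not tested.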
